A study of Homo sapiens with 4 samples.

Results

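Interferon-stimulated genes are the genes that cells switch on when interferon binds its receptors. They were followed here in the human cell line EJM, which comes from a multiple myeloma (a cancer of plasma cells). The list held 46 genes, chosen by symbol, and 37 of them had a value on at least 3 of the 4 arrays, out of 7713 measured features (4212 named genes and 3501 unnamed probes). Another 2, ADAR and IFI44L, had values on days 3 and 4 only. The remaining 7 (IFI27, IFITM2, OASL, STAT2, IRF7, TRIM21 and USP18) had no probe under these names in the annotation used here. The 39 measured genes were read by 116 probes, of which 112 gave a value and 76 gave one on all 4 arrays.

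The tested samples were EJM cells that carried a form of IκBα, the inhibitor of NF-κB, that blocks signal-induced NF-κB activity (the super-repressor), induced at 37 °C for 1, 2, 3 or 4 days with doxycycline at 20 µg/ml. Their control was the same cells uninduced, so both carried the construct, under the control of the tetracycline repressor. Whether the line is 1 clone is not stated. Each day had 1 two-colour array, with 50 µg total RNA for each dye, the induced cells in Cy5 and the uninduced cells in Cy3, with no dye swap. Values are given as log2 ratios of induced over uninduced cells. The direction of the deposited ratio is not stated. It was taken from the dyes in the labels, and if the ratio runs the other way all signs below are reversed. Base 2 is also an assumption, and with natural logs every fold would be larger.

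Type I interferons bind the receptor chains IFNAR1 and IFNAR2, and the kinases JAK1 and TYK2 then activate a complex with STAT2 and IRF9 that binds the interferon-stimulated response element (ISRE) in target promoters. Interferon γ acts through IFNGR1 and IFNGR2 and leads to transcription from the GAS element. NF-κB meets this pathway at the promoters of interferon β and IRF1, which it helps to switch on. The products include RNA sensors and nucleases, translation inhibitors, membrane proteins that block virus entry or release, and nuclear body proteins.

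Type I interferon acts on its targets through the ISRE, so promoters of members named below are shown with it marked (RefSeq, GRCh38.p14). The ISRE core was searched as GAAA, any 2 bases and GAAA again, and the GAS core as TTCNNNGAA on both strands of the 300 bases from 250 before to 50 after each annotated start. A match is a description of the letters and not evidence of binding. Of 34 members with a promoter sequence, 20 (58.8%) held the ISRE core, against 4.38% of 27305 genes. The GAS core was in 10 of the 34 (29.4%), against 9.38% of all genes, and the κB motif in 8 (23.5%), against 13.3%. Overlaps between motifs were not removed.

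IFITM1 and SP110, the members furthest above and below 0 among those with the same sign on every array, are shown as whole promoter windows, with the ISRE core in capitals. The IFITM1 window (chr11:313790-314089, plus strand) has 2 cores, which begin 40 and 6 bases before the start. The SP110 window (chr2:230225587-230225886, minus strand, the first of its 2 listed promoters) holds no match to these letters.
IFITM1: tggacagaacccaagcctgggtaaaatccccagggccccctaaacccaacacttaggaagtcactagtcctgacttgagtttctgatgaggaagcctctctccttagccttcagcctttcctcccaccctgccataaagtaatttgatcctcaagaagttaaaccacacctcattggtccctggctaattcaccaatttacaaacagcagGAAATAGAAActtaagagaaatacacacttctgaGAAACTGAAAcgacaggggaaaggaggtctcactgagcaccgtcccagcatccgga
SP110: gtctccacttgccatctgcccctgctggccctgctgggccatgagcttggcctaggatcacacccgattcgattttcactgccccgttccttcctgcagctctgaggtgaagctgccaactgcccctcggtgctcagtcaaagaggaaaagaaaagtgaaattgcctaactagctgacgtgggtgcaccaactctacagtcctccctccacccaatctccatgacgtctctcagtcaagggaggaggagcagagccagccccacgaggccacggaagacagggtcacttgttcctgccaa
For ISG15 (chr1:1013364-1013419), IFI44 (chr1:78649751-78649800) and IFIT5 (chr10:89414503-89414593), all on the plus strand, the cores are shown with 20 bases on each side, because these members differ in how steady their values were. In ISG15 a pair of overlapping cores runs together as 1 stretch of capitals. In IFI44 and IFIT5 the cores are on the opposite strand and read as TTTC, 2 bases and TTTC.
ISG15: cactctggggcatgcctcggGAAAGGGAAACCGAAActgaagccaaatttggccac
IFI44: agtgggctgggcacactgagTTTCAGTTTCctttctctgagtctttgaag
IFIT5: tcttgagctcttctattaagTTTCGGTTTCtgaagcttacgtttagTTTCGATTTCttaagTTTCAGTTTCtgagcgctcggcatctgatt

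The first comparison set induced against uninduced cells over the 4 days for these genes. As a group they lay close to 0. The median of the 37 means was 0.028, against -0.032 over all 7713 features, and 21 means (56.8%) lay above 0 and 16 below, against 44% of all features above 0. Members called by the test numbered 0 of 37 (limma, adjusted p under 0.05, smallest adjusted p = 0.219), where 0.337% of all features were called. An unadjusted p under 0.05 was found for 3 members (8.11%), against 12.5% of all features, a share no higher than the background. The 95% intervals of 35 of the 37 means lay within 2-fold in either direction (94.6%, against 94.8% of all features). The exceptions were IFI44 and TRIM22. These are bulk RNA ratios, so fewer cells expressing a gene and less RNA per cell cannot be told apart.

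Day by day the members stayed near the other features as well. Their median log2 ratio was -0.033 on day 1 (36 members), 0.017 on day 2 (34), 0.081 on day 3 (37) and -0.017 on day 4 (37), against -0.062, -0.081, 0.017 and 0.012 for all features. Members below 0 numbered 22, 16, 17 and 23 on days 1 to 4. That is 61.1%, 47.1%, 45.9% and 62.2% of them, against 55.9%, 58.3%, 47% and 48.4% of all features. At least 2-fold in either direction were OAS3 on day 1, TRIM22 on day 2, IFI44 on day 3 and no member on day 4. That is 2.78%, 2.94%, 2.7% and 0% of the members on days 1 to 4, against 3.74%, 5.5%, 0.876% and 1.25% of all features. The spread over members was widest on day 2, with an SD of 0.48, and narrowest on day 4, at 0.23.

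**Figure D1:**
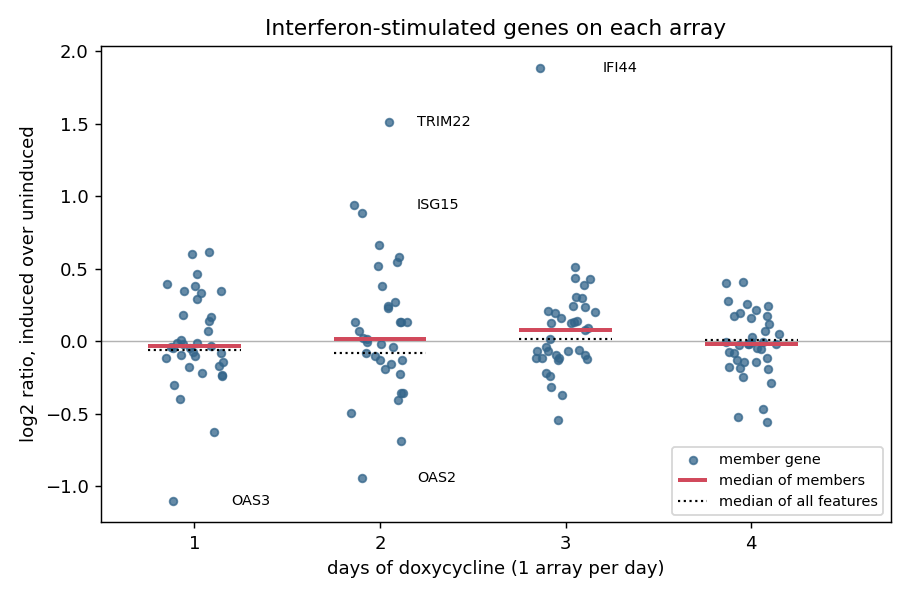
Each point is the log2 ratio (induced over uninduced) of 1 member gene on the array of that day, with the median of the members (red line) and of all features (dotted line). The member medians stay between -0.033 and 0.081, and the largest values are IFI44 at 1.89 on day 3 and TRIM22 at 1.51 on day 2.

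The study as a whole gives this context. The arrays had values for 10321 to 13872 of 15246 probes, fewest on day 2, and the SD over probes was 0.52 and 0.57 on days 1 and 2, against 0.34 and 0.38 on days 3 and 4. Of the 39 measured members, 3 had no value on day 1 and 5 none on day 2. NFKBIA, the gene the transgene is derived from, averaged -0.14 ± 0.073 (SD, 4 arrays; limma adjusted p = 0.61) and does not check the labels, while the NF-κB target TNFAIP3 averaged -1.47 ± 0.28 (limma adjusted p = 0.0178). Ratios give no levels, so the plasma cell label could not be checked against its markers. The means ran from -0.046 to 1.00 for 8 plasma cell markers (median 0.45) and from -0.14 to 0.36 for 4 T cell markers (median 0.099). They ran from -0.28 to 0.37 for 5 myeloid markers (median -0.18) and from -0.14 to 0.85 for 3 stromal and red cell markers (median 0.10). The last list held HBB, a globin chain of red cells, at 0.85 ± 0.091 (limma adjusted p = 0.0381). The other globin gene in it, HBA1, lay on the other side of 0, at -0.14 ± 0.42 (limma adjusted p = 0.761). The part of any of these in the results was not tested.

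The receptors gave 1 member that stood above 0 on every array. IFNAR2, the chain that binds type I interferon most tightly, read 0.33, 0.66, 0.20 and 0.24 on days 1 to 4. All 4 values were above 0, from its only probe, and the day 2 value was the highest. Its mean was 0.36 ± 0.21 (SD, 4 arrays), with an unadjusted p of 0.0248 that did not pass (limma adjusted p = 0.329; 95% interval 0.060 to 0.66). IFNAR1, its partner chain, averaged 0.051 ± 0.097 over 6 probes. The interferon γ receptor chains had means below 0 by less than their SD, IFNGR1 (ligand-binding) at -0.13 ± 0.17 and IFNGR2 (the signalling partner) at -0.035 ± 0.30. IFNGR1 lay above 0 on day 3 (0.015) and IFNGR2 on day 1 (0.39). Of these 4 receptor chains 2 had means above 0 and 2 below.

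Interferon transcription factors were centred on 0, with a median of 0.0025 over 4 measured members. IRF9, the DNA-binding part of the complex that recognises the ISRE, averaged 0.065 ± 0.14. IRF2, which competes with IRF1 at its sites, averaged -0.043 ± 0.14. IRF8, a factor of myeloid and B cells, read -0.40, -0.35, -0.12 and 0.20 on days 1 to 4 and averaged -0.17 ± 0.27. Each of these days was read by a different set of IRF8 probes, day 2 by probe 28699_1 alone, and no IRF8 probe had all 4 values. IRF1, an activator that NF-κB itself helps to induce, had no value on day 1 and read 0.89, -0.22 and -0.52 on days 2, 3 and 4. Its day 2 value was 1 probe reading and lay opposite in sign to the later days, so its mean of 0.048 ± 0.74 (3 arrays) describes no single day.

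**Figure D2:**
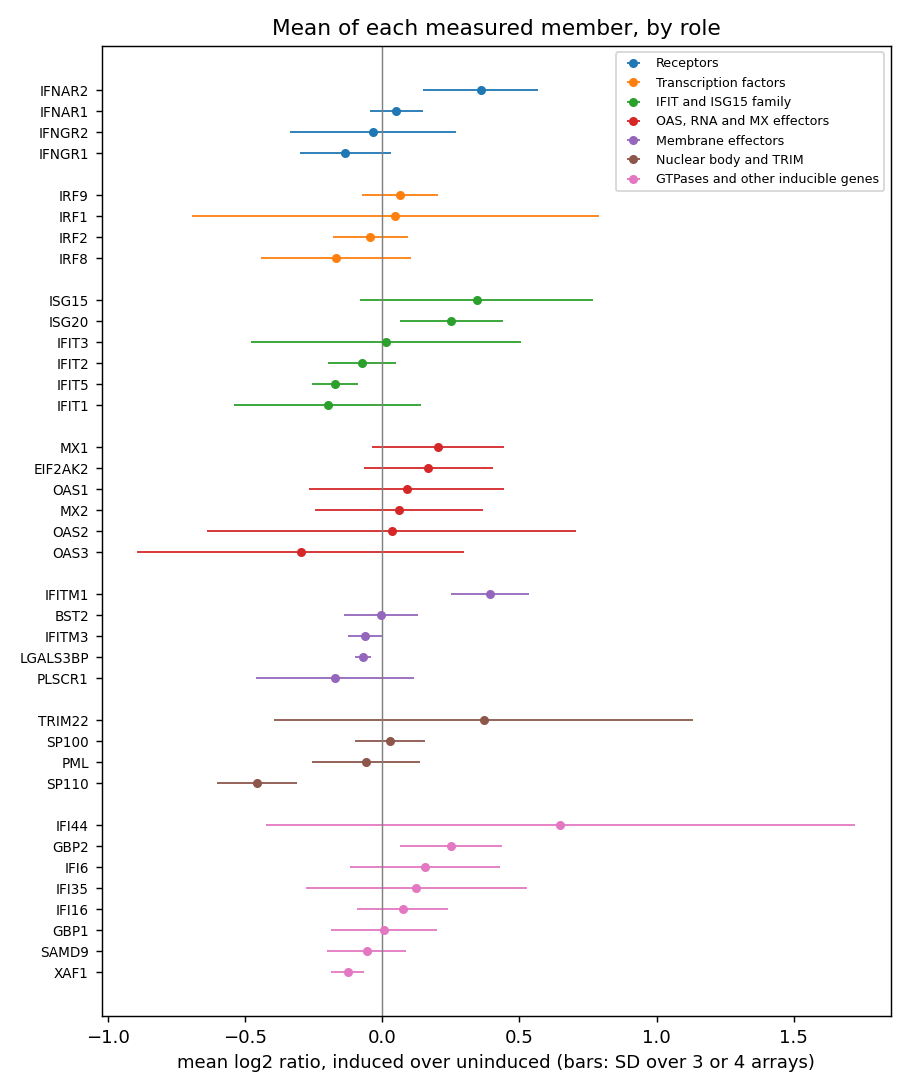
Points are the mean log2 ratio (induced over uninduced) of each of the 37 measured members and bars the SD over its 3 or 4 arrays, grouped by role. Most means lie within 0.5 of 0, with IFI44 at 0.65 the one beyond it, and the longest bars belong to IFI44, TRIM22 and IRF1.

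Among the IFIT proteins, which bind viral RNA ends and block translation, and the ISG15 system of protein tagging, 3 members averaged above 0 and 3 below. IFIT5 read -0.18, -0.22, -0.24 and -0.053 on days 1 to 4, below 0 on every array, with a mean of -0.17 ± 0.084 (limma adjusted p = 0.548). Its 2 probes lay on opposite sides of 0 on day 1 (-0.39 for 16057_1 and 0.035 for 28608_1) and on day 4 (0.13 and -0.24), and its day 2 value came from probe 16057_1 alone. IFIT1 and IFIT2 averaged -0.20 ± 0.34 and -0.073 ± 0.12, and IFIT3 0.014 ± 0.49. The 3′ exonuclease ISG20 read 0.35, 0.23, 0.43 and -0.0023 and averaged 0.25 ± 0.19 (limma adjusted p = 0.451). The ubiquitin-like protein ISG15 read -0.046, 0.94, 0.30 and 0.18, and averaged 0.34 ± 0.42 (limma adjusted p = 0.463).

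The OAS enzymes (which make the signal that activates RNase L), the MX GTPases and the RNA-dependent kinase EIF2AK2 (PKR) had 5 of 6 means above 0, and none of the 6 passed the test. MX1, which traps viral nucleocapsids, read -0.10, 0.38, 0.13 and 0.40 on days 1 to 4 and averaged 0.20 ± 0.24. Means were 0.17 ± 0.24 for EIF2AK2, 0.089 ± 0.36 for OAS1, 0.061 ± 0.31 for MX2, 0.034 ± 0.67 for OAS2 and -0.30 ± 0.60 for OAS3. The smallest limma adjusted p among these was 0.56. OAS2 carried readings of opposite sign, 0.60 on day 1 and -0.94 on day 2, both from the same probe. ADAR, the RNA-editing enzyme, read -0.29 and -0.28 on days 3 and 4 and was not tested on the mean.

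Membrane and secreted members held the highest steady value. IFITM1, a membrane protein that blocks the entry of enveloped viruses, read 0.35, 0.58, 0.24 and 0.41 on days 1 to 4. It was above 0 on all 4 arrays, and no day stood apart. The mean was 0.39 ± 0.14 (SD, 4 arrays), with an unadjusted p of 0.0115 that did not pass over all features (limma adjusted p = 0.261; 95% interval 0.12 to 0.67). Of its 7 probes with at least 3 values, 6 averaged above 0 and 1 below, from -0.058 to 1.00. Highest among them was probe 19352_1, at 0.74, 1.07, 0.97 and 1.24 on days 1 to 4. These 7 probes all had 4 values. With only the lowest-numbered of them (16865_1) IFITM1 averaged 0.088 (limma adjusted p = 0.766), the lowest of the 6 averages above 0. The IFITM genes are close relatives and cDNA probes of one can read another, whose part in the IFITM1 value was not tested. IFITM3 averaged -0.062 ± 0.063. BST2 (tetherin, also a plasma cell surface antigen) averaged -0.0050 ± 0.13 and PLSCR1 (a phospholipid scramblase) -0.17 ± 0.29. LGALS3BP, a secreted galectin-binding glycoprotein, read -0.037, -0.092 and -0.081 on days 1, 3 and 4 and averaged -0.070 ± 0.029.

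SP110, a nuclear body protein, had the lowest mean of all members and the smallest p. It read -0.24, -0.50, -0.54 and -0.55 on days 1 to 4. All 4 values were below 0, with day 1 the nearest to it. The mean was -0.46 ± 0.15 (SD, 4 arrays; unadjusted p = 0.00552, limma adjusted p = 0.219; 95% interval -0.73 to -0.18). Its 3 probes all averaged below 0 but differed by day. Probe 37483_1 read -0.39, -0.68, -1.67 and -1.29, while probe 28873_1 read -0.46, -0.44, -0.021 and 0.19. The remaining probe, 16429_1, read 0.13, -0.37 and 0.067 on days 1 to 3 and had no value on day 4. On days 3 and 4 the SP110 value below 0 therefore came from probe 37483_1, and on day 1 from 37483_1 and 28873_1. With days 3 and 4 alone SP110 was called lower (-0.55, limma adjusted p = 0.0312), the 1 of 39 members called there (2.56%), where 6.58% of 8650 features were called. With array weights it was also called (-0.51, limma adjusted p = 0.0459), the 1 of 37 members called there, where 144 of 7713 features were called. Probes 28873_1 and 37483_1 both had 4 values. With only the lower-numbered of them (28873_1) SP110 averaged -0.18 (limma adjusted p = 0.621), while 37483_1 averaged -1.01. The other nuclear body proteins averaged 0.028 ± 0.13 (SP100) and -0.060 ± 0.20 (PML).

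The remaining inducible genes lay mostly just above 0, with 6 of 8 means above it and a median of 0.099. GBP2, a guanylate-binding GTPase, read 0.38, 0.24, 0.39 and -0.0075 on days 1 to 4 and averaged 0.25 ± 0.18 (limma adjusted p = 0.451). Its day 4 value averaged probe 17042_1, at 0.30, with probe 27519_1, at -0.31, which had no value on the other days. GBP1, its relative, averaged 0.0075 ± 0.19, the mitochondrial protein IFI6 0.15 ± 0.27, the DNA sensor IFI16 0.074 ± 0.17 and SAMD9 -0.057 ± 0.14. XAF1, a pro-apoptotic partner of XIAP, read -0.072, -0.12 and -0.19 on days 1, 3 and 4 and averaged -0.13 ± 0.061. IFI44L read 0.094 and 0.29 on days 3 and 4.

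The members were next separated by how their values were spread over the days. A member was called steady if every array had the same sign and its SD was at most 0.5 of its mean in size. Steady were 5 of 37 (13.5%, against 8.1% of all features): IFITM1 above 0, and SP110, IFIT5, XAF1 and LGALS3BP below. IFITM1 and SP110 were not among the steady members when the median of the probes or the most complete probe stood for the gene. Ties in completeness went to the lowest probe number. IFIT5, SP110 and XAF1 were steady only as averages. Probes lay on opposite sides of 0 on 2 days in IFIT5, on days 1, 3 and 4 in SP110 and on day 4 in LGALS3BP. In IFITM1, probe 27589_1 lay below 0 on days 1 to 3. On day 1 the XAF1 probes read 0.97 (36368_1) and -1.12 (36583_1), which cancelled to -0.072. They also lay on opposite sides of 0 on day 3 (-0.25 and 0.020) and day 4 (-0.48 and 0.095). For LGALS3BP the mean of -0.070 was small. IFNAR2 missed the limit on its SD.

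**Figure D3:**
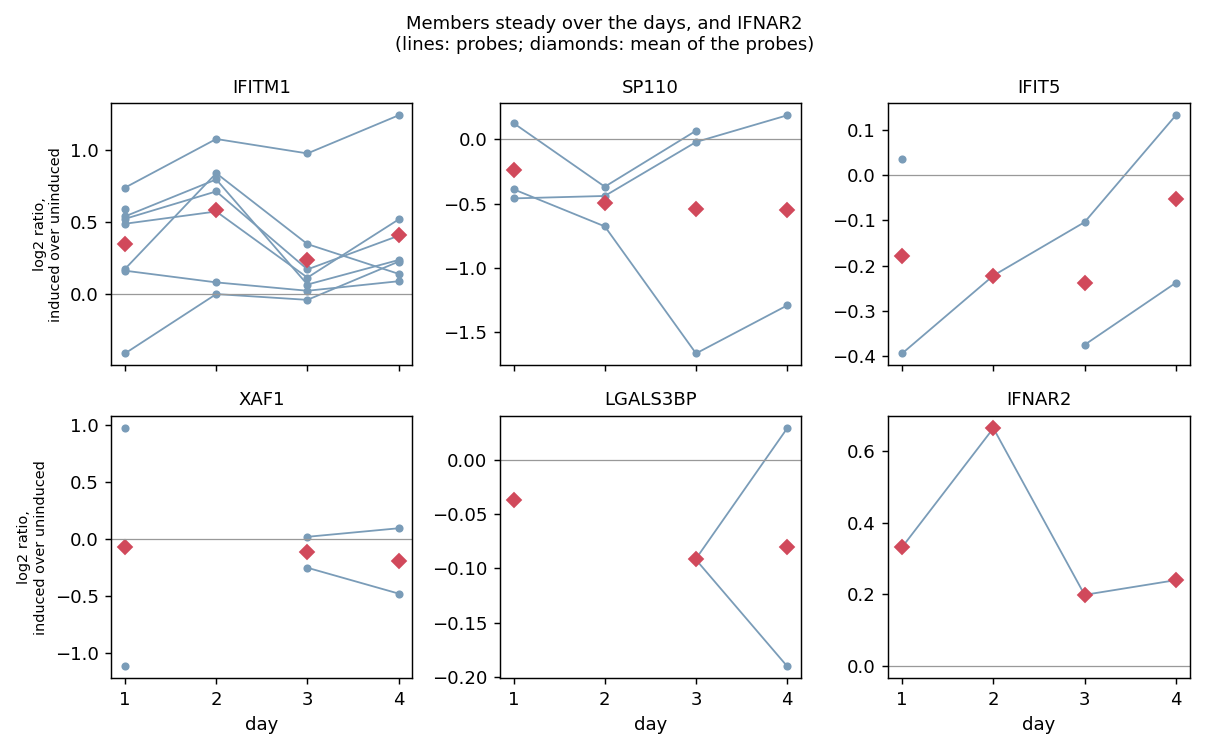
Each panel is 1 gene, with days on the x axis and the log2 ratio (induced over uninduced) on the y axis, whose range differs between panels. Thin lines are probes and red diamonds their mean. IFITM1 averages 0.24 to 0.58 on the 4 days, while the SP110 probes part on days 3 and 4 and the XAF1 probes lie at 0.97 and -1.12 on day 1.

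A member was called single-day if its largest value was at least 1 in size and at least 3 times the next largest. There were 2 of 37 (5.41%, against 4.3% of all features), TRIM22 and IFI44. TRIM22, an antiviral ubiquitin ligase, read 0.070, 1.51, -0.060 and -0.045 on days 1 to 4. As an average, only day 2 stood away from 0. That value came from probe 24393_1, at 3.17, while probe 17053_1 read -0.15 on the same array. On day 4 the probes lay on opposite sides of 0, at 0.42 (17053_1) and -0.51 (24393_1). Day 1 was read by 17053_1 alone. The TRIM22 mean was 0.37 ± 0.76 with all arrays (limma adjusted p = 0.598) and -0.012 without the day 2 array. IFI44, a cytoplasmic protein induced by type I interferon, read -0.0090, 1.89 and 0.068 on days 1, 3 and 4 and had no value on day 2. It had 1 probe, so the day 3 reading has no second reading on that array. Its mean of 0.65 ± 1.07 was the highest of the members and had the widest spread (limma adjusted p = 0.527). The 30 other members were neither steady nor single-day (81.1%, against 87.6% of all features).

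Just outside the single-day limits, ISG15 reached 0.94 on day 2, and OAS3 had -1.10 on day 1 with -0.40 as its next largest value.

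Several other day values also rested on 1 reading of 1 probe. For ISG15, probe 28740_1 read 2.83 on day 2, while the other 2 probes averaged -0.0040 there. OAS1 had 2.19 from probe 28350_1 on day 2, and the others averaged -0.27. For MX2, probe 27421_1 read 1.35 on day 2 against an average of 0.10 for the rest. ISG20 had 1.56 from probe 30255_1 on day 3, and the other 3 averaged 0.052. On their other days these 4 probes read between -0.36 and 0.35. Readings of at least 1 made up 5 of 83 member readings on day 2 (6.02%), against 2.6% of all named probes. None was -1 or less on day 2, against 3.46%. Leaving out every probe with 1 such lone reading, across the whole table, brought ISG15 to a mean of 0.041 (limma adjusted p = 0.911) and TRIM22 to 0.072, while ISG20 stayed at 0.26.

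**Figure D4:**
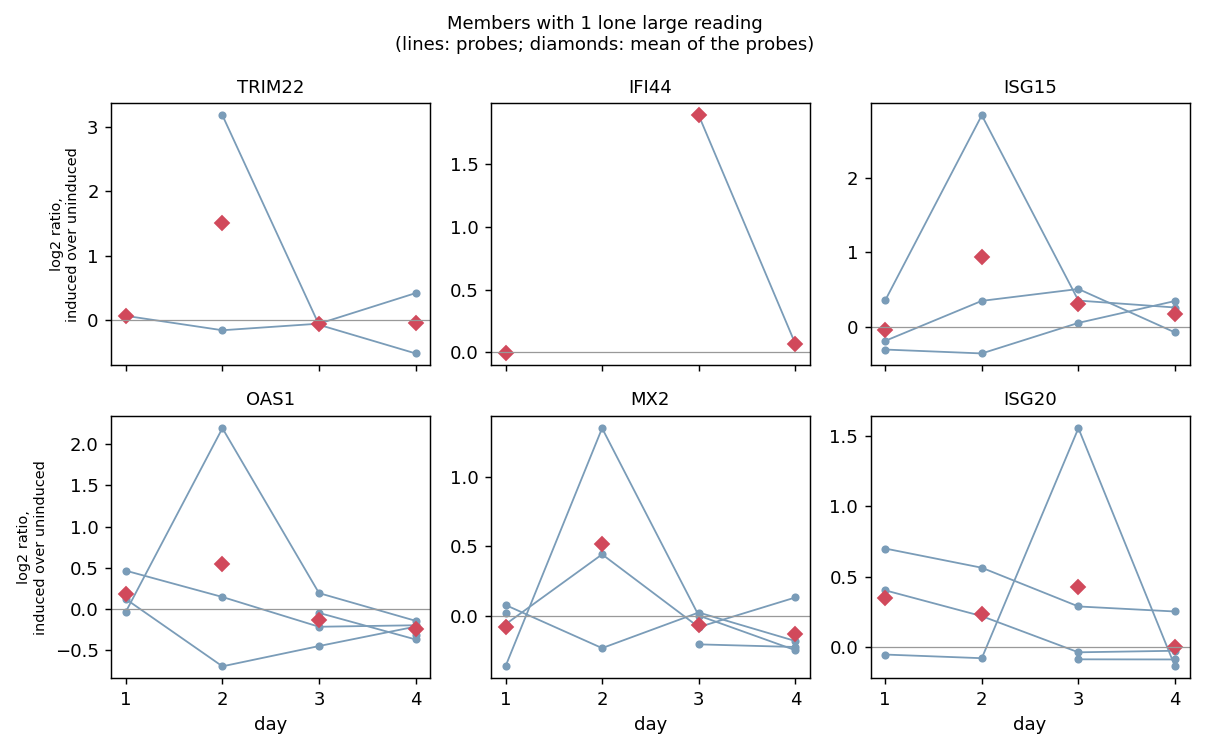
Each panel is 1 gene, with days on the x axis and the log2 ratio (induced over uninduced) on the y axis, whose range differs between panels. Thin lines are probes and red diamonds their mean. In TRIM22, ISG15, OAS1 and MX2 a single probe stands above the others on day 2 and in ISG20 on day 3, and IFI44 has 1 probe, at 1.89 on day 3.

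Probes of the same gene often differed in sign. Of 26 members with at least 2 probes measured on 3 or more arrays, 17 had probes with means on both sides of 0 and 9 did not. The same share over all genes was not counted, so it is not shown to be particular to the members. Of the 37 member means, 18 were under 0.1 in size. Among the 17 were IFITM1, described above, and MX1, with probe means of -0.034 and 0.79. The higher one, probe 19350_1, read 0.14, 0.81, 0.83 and 1.39 on days 1 to 4, while probe 26580_1 read -0.34, -0.039, 0.12 and 0.12. Another MX1 probe, 28587_1, had values on days 3 and 4 only (-0.58 and -0.305) and lowered the MX1 values of those days.

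The second comparison asked whether the members changed with the days of induction. None passed: 0 of 33 members with all 4 values were called on the slope, as were 0 of 6427 features (0%; limma, smallest adjusted p among members 0.304). An unadjusted p under 0.05 was found for 3 members (9.09%), against 15% of all features. Of the 33 slopes 17 were below 0 and 16 above. The labels do not say how long the control cells were in culture, and time in culture cannot be told apart from induction in a slope.

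OAS3, the largest of the OAS enzymes, read -1.10, -0.40, 0.14 and 0.17 on days 1 to 4. Days 1 and 2 lay below 0 and days 3 and 4 above, and both of its probes kept that order. The slope was 0.44 ± 0.10 log2 per day (SE; unadjusted p = 0.00628, limma adjusted p = 0.304). IFIT3, an RNA-binding partner of IFIT1, read -0.63, -0.082, 0.51 and 0.26, with a slope of 0.32 ± 0.12 (limma adjusted p = 0.319). IFI35, a leucine zipper protein, ran the other way, at 0.62, 0.27, -0.096 and -0.29, with a slope of -0.31 ± 0.081 (limma adjusted p = 0.304). IFIT3 and IFI35 had 1 probe each. With 1 array left out, the OAS3 slope lay between 0.29 (without day 1) and 0.62 (without day 4), and that of IFIT3 between 0.17 (without day 1) and 0.57 (without day 4). The IFI35 slope lay between -0.36 (without day 4) and -0.28 (without day 1). PLSCR1 read 0.0080, 0.13, -0.37 and -0.47, with a slope of -0.19 ± 0.093 (limma adjusted p = 0.378).

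**Figure D5:**
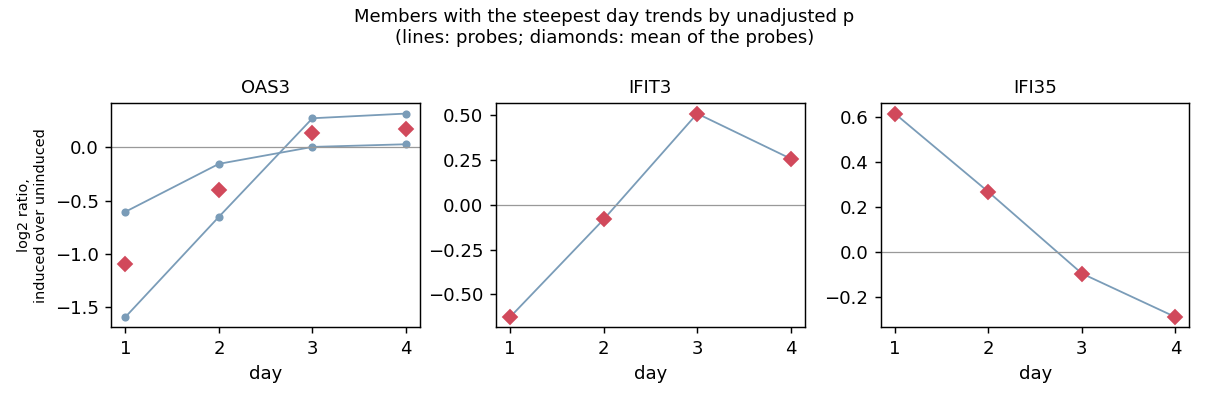
Each panel is 1 gene, with days on the x axis and the log2 ratio (induced over uninduced) on the y axis, whose range differs between panels. Thin lines are probes and red diamonds their mean. OAS3 goes from -1.10 on day 1 to 0.17 on day 4, IFIT3 from -0.63 to 0.26 and IFI35 from 0.62 to -0.29, none of which passed the test over all features.

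The members that hold the ISRE core were set beside those that do not. The 17 measured members with it had a median mean of 0.0075, with 9 above 0 and 8 below, and the 12 without it in this window a median of 0.038, with 7 above and 5 below. Both the highest steady member (IFITM1) and IFIT5, below 0 on every array as an average, hold it.

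Other genes of the pathway also had means on both sides of 0. Of 86 such genes 39 were measured, 24 with means below 0 and 15 above (38.5%, against 44% of all features), with a median of -0.035. None was called on the mean (0 of 39 by limma, against 0.337% of all features), and 6 had an unadjusted p under 0.05 (15.4%, against 12.5%). PTPN6 (SHP-1, a phosphatase that restrains JAK signalling) read 0.58, 0.59, 0.45 and 0.44 on days 1 to 4 and averaged 0.51 ± 0.082 (limma adjusted p = 0.15). The checkpoint ligand CD274 (PD-L1) read -0.52, -0.53 and -0.63 on days 1, 3 and 4 and averaged -0.56 ± 0.062 (limma adjusted p = 0.219). TBK1, the kinase that activates IRF3, averaged -0.31 ± 0.17, TRIM14 -0.32 ± 0.13 and PARP9 0.33 ± 0.10. SAMHD1, a nucleotide hydrolase, averaged 0.52 ± 0.49, with 1.23 on day 2. The mitochondrial kinase CMPK2 read -1.11 on day 1 and averaged -0.46 ± 0.57 over 3 arrays. Of 18 interferon genes 3 were measured, with means from -0.090 to 0.36, and IFNG (interferon γ) read -0.14, 1.32, 0.16 and 0.097, so that its mean of 0.36 ± 0.65 rested on day 2. IFNW1, another interferon gene with 1 probe, read -0.46, 1.62, -0.016 and 0.24, while IFNB1 read -0.075 on day 2. A high day 2 value was also found outside the interferon genes, in TLR3 (1.61, 1 probe).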

How the data were processed

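Total RNA of induced and uninduced EJM cells was hybridised to 4 two-colour arrays. The values are log2 ratios of the channels as the authors deposited them; per the labels' protocols the induced cells carried Cy5. The sources used here do not state the background correction, normalization, spot filter or log base. Base 2 was taken because the largest value, 7.25 in size, would as log10 exceed a 16-bit scanner, and no spot intensities were used here. Of 15246 probes, 10169 carried 1 symbol, 4 several, and 5073 are unnamed here. Symbols were updated by Entrez identifier with RefSeq (GRCh38.p14, names and promoter sequences only) for 10128 probes. No unmatched probe could be added by alias or accession.

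Probes of a gene were averaged per array. Means over arrays against 0 (values on at least 3 arrays) and slopes on day (all 4) were fitted over the whole table by lmFit and eBayes of limma 3.58.1 (R 4.3.3), two-sided, with p-values adjusted by Benjamini-Hochberg and called under 0.05, after a check on simulated data. Errors of means are SDs over arrays. The arrays are different days with nothing said of separate cultures, so the spread behind each p-value may be technical, each day has no replicate, and the number of arrays limits the precision. The uninduced RNA has 1 description throughout, so the ratio against 0 may leave out its spread. Dye bias and doxycycline effects remain in the means.

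The members, the lists and the rules for steady and single-day genes were chosen with earlier results of these data known. Values on every array are given for single-day and steady members, those with an unadjusted p under 0.05 and the 10 largest means. Of the other pathway genes, at most 8 are named by p. Any others given by day were chosen after their values were seen. Alternatives covered array scaling, centring and weights, left-out arrays and days, the combination of probes and missing values.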

Additional observations from a re-analysis of the deposited data

Results flagged for a closer look

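In 4 of the 33 members with values on all 4 arrays, 1 day lay far from the other 3, with a gap above the 95% critical value of Dixon's test. That is 12.1% of them, against 6.47% of the 6427 features with 4 values. Chance alone marks about 1 in 20 such groups. These were MX2, at 0.52 on day 2, TRIM22, at 1.51 on day 2, IFITM3, at -0.156 on day 2, and IRF9, at -0.141 on day 4. In MX2 and TRIM22 the distance was that of 1 probe reading (1.35 and 3.17). In IFITM3 and IRF9 the whole range was small, and neither value exceeded 0.16 in size. IFI44 had 3 values and was not assessed in this way.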

How the results depend on the processing

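The members' median lay between -0.019 and 0.062 over the 15 alternatives, either side of 0, and the number of members below 0 between 12 of 32 and 20 of 39. No member was called in 13 alternatives. With days 3 and 4 alone 1 of 39 was called (SP110), where 569 of 8650 features were called. With array weights it was 1 of 37 (SP110), where 144 of 7713 were called. In these 2 alternatives 7 and 6 members had an unadjusted p under 0.05, against 5 of 32 with probes with values on all 4 arrays and 3 of 37 as reported. The share of all features under that p was counted only as reported (12.5%), so the other counts have no background beside them. SP110 was below 0 and IFITM1, IFNAR2, ISG15, ISG20 and GBP2 above 0 in all 15, but only the sign was kept. With the most complete probe of each gene IFITM1 was 0.088 (limma adjusted p = 0.766) and SP110 -0.18 (limma adjusted p = 0.621). Ties went to the lowest probe number. Both genes had other probes as complete, averaging up to 1.00 for IFITM1 (19352_1) and -1.01 for SP110 (37483_1). TRIM22 lay between -0.012 (without day 2) and 0.51 (without day 3) with an array left out, and turned to -0.052 with days 3 and 4 alone. No feature was called on the slope in any of 10 alternatives. Over all features, 26 calls became 3 with arrays scaled to the same spread, 3 to 5 without one array (5 without day 1, 3 without day 2, 3 without day 3, 4 without day 4), 1 with days 1 and 2 alone, 569 with days 3 and 4 alone, 144 with array weights and 42 with values on all 4 arrays. The cause was not tested. Single-day members numbered 4 with arrays centred on their medians (ISG15 and OAS3 added), 4 by the gap ratio, 1 with only the most complete probe of each gene, 0 with probes with values on all 4 arrays and 1 without lone large readings, an alternative chosen after seeing the data. Steady members numbered 3 with scaled arrays (IFITM1, SP110, IFNAR2), 2 with centred arrays (IFITM1, SP110), 3 with the median of the probes (IFIT5, XAF1, LGALS3BP), 4 with the most complete probe (IFI16, SP100, GBP2, IFNGR1) and 3 with probes with values on all 4 arrays (IFITM1, SP110, GBP2). No paired analysis was possible because there is 1 group with 1 array a day. Signal over background was not used here, so no limit for dim spots can be given.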
